A study of Mus musculus with 9 samples.

Results

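The interferon-stimulated genes described here are 47 genes outside the Ifi200 cluster, listed by symbol from the known interferon-induced genes of the mouse, with earlier results of these data known. All 47 had a row among the 37022 genes of the deposited tables, and 37 passed the filter on low gene-body signal, as did 15942 genes in all. The cells were mouse CD8+ T cells, which kill infected and tumour cells. They were given 0.2 mM 5-ethynyl uridine for 30 minutes, an analogue that enters newly made RNA and lets it be captured, so that the libraries report nascent RNA. The 9 libraries form 3 groups of 3, labelled Acute (acutely stimulated cells), Chronic (chronically stimulated cells) and ChronicMEKi (chronically stimulated cells under a block of MEK, the kinase that activates ERK). All groups received the uridine analogue. Strain, age, genotype, the kind and duration of stimulation and the inhibitor are not given in the labels used here, and the labels do not say whether replicates came from separate animals or cultures. The p-values therefore measure the spread between these libraries, which may be technical.

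Type I interferons bind the receptor pair IFNAR1 and IFNAR2 and activate the kinases JAK1 and TYK2, which phosphorylate STAT proteins, STAT2 among them. Together with IRF9 these form a transcription factor complex that binds interferon-stimulated response elements, whereas interferon gamma, made by activated CD8+ T cells themselves, acts mainly through gamma-activated sites and through IRF1. The induced genes encode sensors of foreign nucleic acid, enzymes that degrade or edit RNA, proteins that block viral entry, translation or assembly, and regulators that feed back on the pathway.

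Values are the authors' deposited signal, scaled between libraries so that the typical gene keeps the same level, and "signal" below means scaled gene-body signal, the part of a transcript past its start region. A gene is said to have risen or fallen, or to be called, where the adjusted p of limma fitted over all 15942 genes was under 0.05. Log2 fold changes are differences of group means of log2(signal + 5), which understates changes of weak genes. Deposited gene-body totals ranged from 48601757 to 52216192 per library, depth in reads is unknown, and correlations of log2 signal across genes ranged from 0.959 to 0.984 within groups and from 0.910 to 0.954 between them. Rows resembling ribosomal RNA held 19.1% to 40.6% of the gene-body total, with the lowest shares in the acute libraries. In bulk RNA, fewer cells of a type and less RNA per cell cannot be told apart. Markers of CD8+ T cells were present in every library: Cd8a signal was 3653, 4339.6 and 4189 in the acute, 832, 902 and 1171 in the chronic and 2997, 2579.9 and 3064 in the MEK-inhibited libraries. Summed over 7 T cell markers, signal was 25530.0 to 31000.0 in acute, 16540.0 to 18550.0 in chronic and 25260.0 to 27570.0 in MEK-inhibited libraries. Of these 7, 5 were called lower between chronic and acute (Cd8a at -2.07, with Cd8b1, Cd3e, Cd2 and Thy1) and 4 higher with MEK inhibition (Cd8a, Cd8b1, Cd3e and Thy1), as were most interferon-stimulated genes, and Cd3d and Cd3g were called in neither. Cd4 signal was 496, 446 and 383 in the acute, 344, 214 and 144 in the chronic and 141, 105 and 101 in the MEK-inhibited libraries. By limma, Cd4 was called lower between chronic and acute, at -0.98 (adjusted p = 0.0174). It was also called lower between MEK-inhibited and chronic, at -0.91 (adjusted p = 0.0449), and between MEK-inhibited and acute, at -1.89 (adjusted p = 1.19e-04). The summed signal of 4 B cell markers was 646.4 to 801.7, 356.3 to 442.7 and 234.3 to 656.0. Cd79a was called lower between chronic and acute, like most interferon-stimulated genes, at -1.69 (adjusted p = 0.00225), with 341, 375 and 291 in the acute, 63.1, 155 and 101 in the chronic and 191, 197 and 71.9 in the MEK-inhibited libraries. Pax5 and Ebf1 reached 207 and 288 and were not called, and Ms4a1 reached 24.5. Summed signal was 160.6 to 226.7, 112.5 to 170.9 and 90.5 to 218.1 for 5 myeloid markers, and 220.3 to 332.9, 278.8 to 365.3 and 175.4 to 263.1 for 5 dendritic cell markers. The dendritic sum came mostly from Zbtb46, at 142 to 263, and the myeloid one from Csf1r and Adgre1, which reached 107 and 122, while Lyz2 and Cd14 were at most 8.49 and 9.68, and Siglech and Clec9a at most 14.4 and 19.7. For 3 natural killer cell markers it was 1263.0 to 1434.0, 970.6 to 1834.0 and 1568.0 to 1693.0, nearly all from Eomes, which CD8+ T cells also express, with Ncr1 at most 6.4. The part of other cells in the results was not tested.

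Chronic against acute stimulation was compared to ask how persistent stimulation alters nascent transcription. Most of the interferon-stimulated genes that passed the filter were lower under chronic stimulation. The deepest falls were those of Isg20, an exonuclease that degrades single-stranded RNA, Samd9l, an inhibitor of translation and growth, Zbp1, a sensor of Z-form nucleic acid, and Ddx60, a helicase linked to RNA sensing, with log2 changes of -3.65, -2.67, -2.51 and -2.32. All 4 transcription factors of the list fell. Mx1, a dynamin-like antiviral GTPase, was the 1 gene of the list that was called higher. Of 37 members tested, 29 were called lower, 1 higher and 7 neither, where 15.9% of all genes tested were called lower and 18.0% higher. In 16 members the fall was at least 1 on the log2 scale. The median log2 change was -0.96 over the 37 members and -0.02 over all genes. In 30 of the 37, every chronic library lay below every acute library, and in 1, Bst2, above, which held for 21.9% and 22.4% of all genes. Mx2 passed the filter through the acute libraries alone, the group where it is high, so its fall was favoured by the filter. Without it, 28 of 36 were called lower. Mx2 is also among the 16 members with a fall of at least 1 and among the 30 whose libraries did not overlap. Scaling by library totals moved the median of all genes by -0.49 and left 34 members called lower and none higher, beside 6846 genes lower and 1096 higher over all genes. Among the 22 tested members that overlap no other annotated gene, 16 were called lower and 1 higher.

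**Figure D1:**
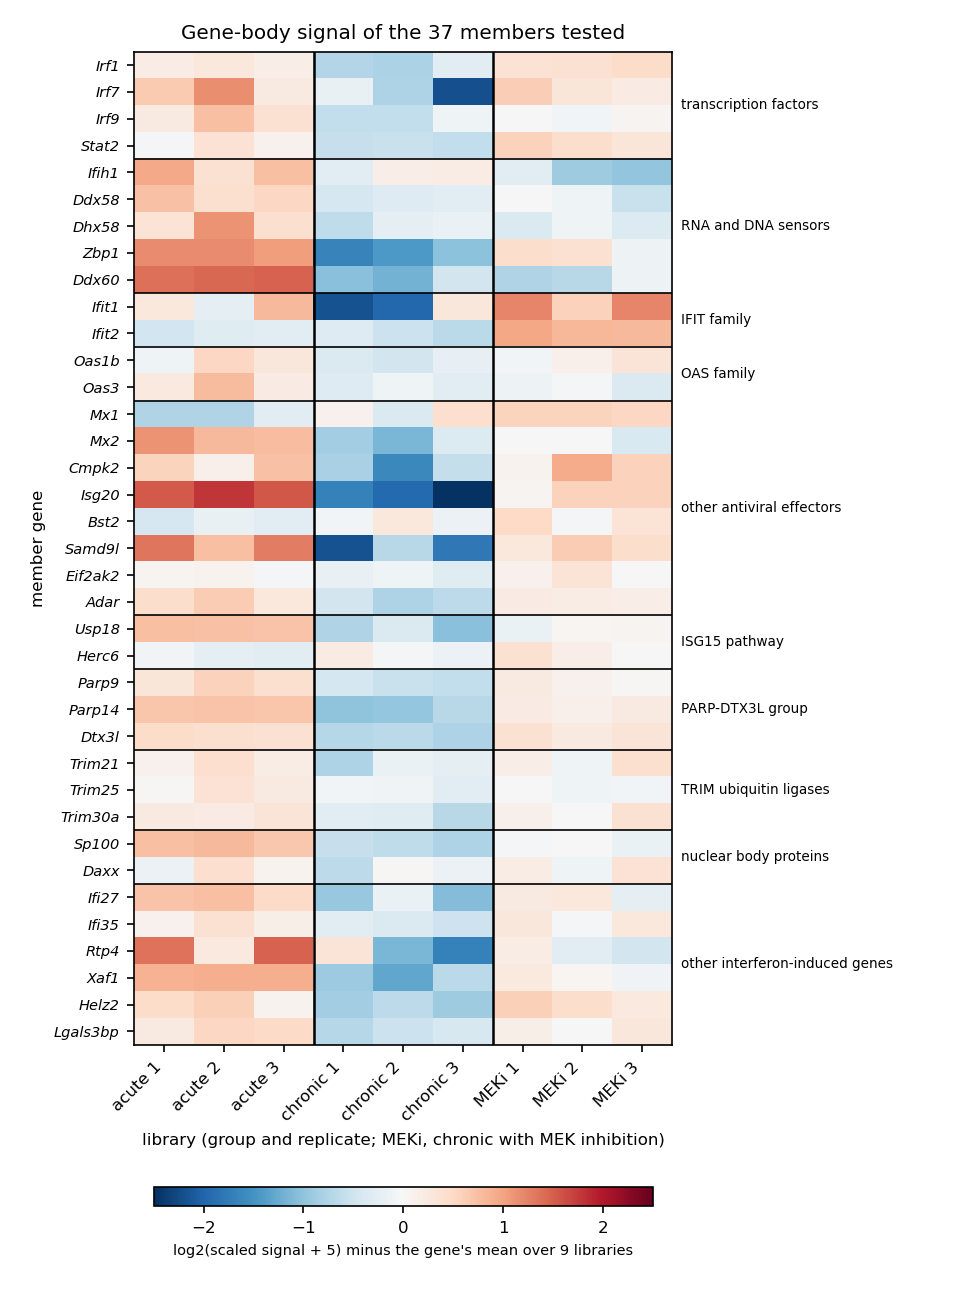
Gene-body signal of the 37 tested interferon-stimulated genes (rows, grouped by role) in the 9 libraries (columns), as log2(scaled signal + 5) minus the gene's mean over the libraries; the colour scale ends at -2.5 and 2.5. Most rows are red in the acute, blue in the chronic and pale red in the MEK-inhibited libraries (labelled MEKi), while Mx1 is highest in the MEK-inhibited columns and Ifit2 is alike in the acute and chronic ones.

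Chronic stimulation with and without MEK inhibition was compared to ask how MEK activity shapes that transcription. With MEK inhibition, most of the interferon-stimulated genes tested were higher than under chronic stimulation alone. None was called lower by limma, with 1, Ifih1, lower at an unadjusted p under 0.05. The largest rises were those of Isg20 (2.44), Ifit1 (2.29), whose protein binds foreign 5' RNA ends, Samd9l (2.0) and Zbp1 (1.61), all as log2 changes. No chronic value of Ifit1 reached the filter minimum, so its rise was favoured by the filter. Ifit2, a relative of Ifit1, rose by 1.38 although it had not been called between chronic and acute stimulation. Of the 37 members tested, 24 were called higher and 13 were not called, where 9.93% of all genes were called higher and 7.65% lower. The rise was at least 1 in 13 members, and the median was 0.66 over the members and 0.04 over all genes. Every MEK-inhibited library lay above every chronic library in 25 members and below in 1, Ifih1, against 17.8% and 14.4% of all genes. Ifit1 is among those called higher, those with a rise of at least 1 and those lying above without overlap. Of the 22 members without an overlapping gene, 12 were called higher. This comparison shares its chronic libraries with the first, so the error of those 3 libraries enters both.

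MEK-inhibited chronic libraries were also set against the acute ones. Here the members split: Ifit2 and Mx1 were higher with MEK inhibition, by 1.22 and 1.14 on the log2 scale, while 13 members were lower. The largest differences among those lower were in Ddx60 (-1.95), Ifih1 (-1.42), which encodes the RNA sensor MDA5, Isg20 (-1.21), and Zbp1 (-0.91). Dhx58 (-0.89), Xaf1 (-0.83), Sp100 (-0.82), Ddx58 (-0.77), Usp18 (-0.74), Oas3 (-0.59), Parp14 (-0.51), Irf9 (-0.46) and Parp9 (-0.31) completed the 13. The calls of Dhx58, Oas3 and Irf9 were lost without acute library 2 or any 1 of the MEK-inhibited libraries, and that of Parp9 without acute library 2 or MEK-inhibited library 2 or 3. All 4 were also lost without the filter on low signal. Over all genes tested, 11.5% were called lower and 14.4% higher. The median log2 change was -0.26 over the members and 0.00 over all genes, and groups did not overlap in 20 members that were lower and 5 that were higher, against 19.6% and 22.4% of all genes. Mx2, which passed the filter through the acute libraries alone, is among the 20. The count of lower members depended on scaling. Library totals, which moved the median of all genes by -0.38, gave 24 lower and 2 higher, beside 4965 and 955 over all genes. Under the scaling used elsewhere here, 7 of the 22 members without an overlapping gene were called lower and 2 higher.

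**Figure D2:**
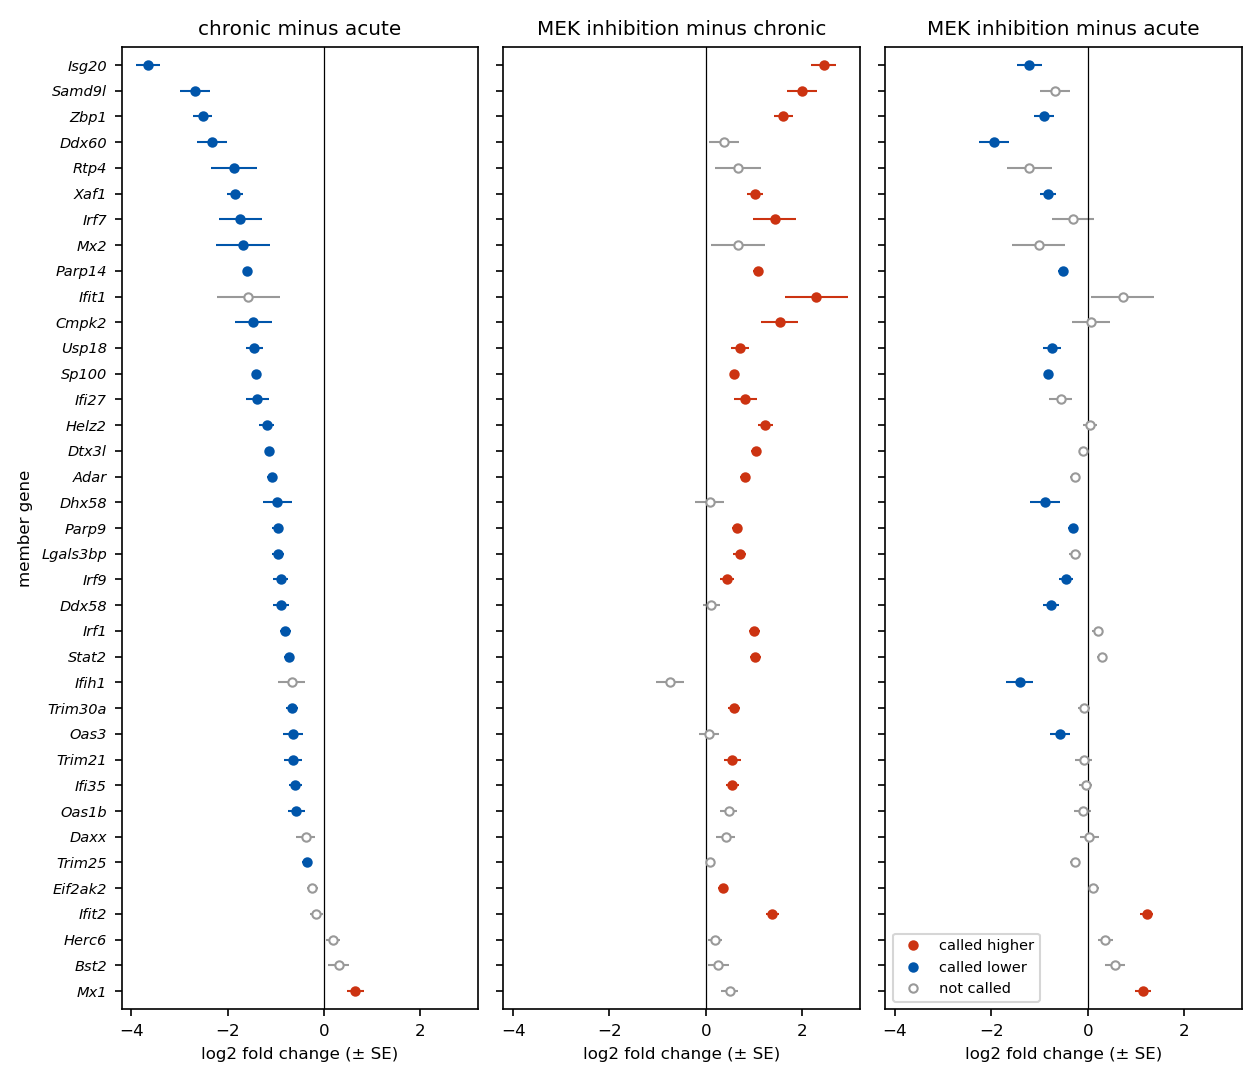
Log2 fold changes (points) with their standard errors (lines) of the 37 tested genes in the 3 comparisons, ordered by the change from acute to chronic stimulation; filled points passed the adjusted p threshold of 0.05, red for higher and blue for lower. Chronic minus acute values run from -3.65 for Isg20 to 0.65 for Mx1, and all called points of the middle panel lie to the right of 0.

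All 4 transcription factors of the list were called lower with chronic stimulation and higher with MEK inhibition. Stat2 (chr10:128270559-128292849 in mm10), a subunit of the type I interferon complex, had a signal of 2605, 3384 and 2844 in the acute, 1780.0, 1795 and 1723 in the chronic and 3938, 3608 and 3264 in the MEK-inhibited libraries. Its chronic values lay below both other groups, which overlapped each other. The log2 change was -0.73 ± 0.11 (SE, adjusted p = 4.90e-05) from acute to chronic and 1.02 ± 0.11 (SE, adjusted p = 2.23e-06) from chronic to MEK-inhibited. Irf9 (chr14:55603571-55610030), the DNA-binding subunit of that complex, had values of 2310.3, 3331 and 2594 in the acute, 1294, 1288 and 1836 in the chronic and 1962, 1891 and 2083 in the MEK-inhibited libraries. Acute libraries were the highest and chronic the lowest, with MEK-inhibited libraries between them and no overlap. The corresponding changes of Irf9 were -0.90 ± 0.15 (SE, adjusted p = 1.17e-04) and 0.44 ± 0.15 (SE, adjusted p = 0.0469). The rise of Irf9 with MEK inhibition was no longer called under 11 of 20 alternatives of processing or of left-out libraries, so it lies close to the threshold.

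Irf1 (chr11:53770014-53778374), an interferon gamma-induced activator, had the highest signal per kilobase of counted span of the 37 members in each group, at 849.7 ± 28.5 (SD, n = 3) in acute libraries, 494 ± 104 in chronic libraries and 978 ± 38.0 with MEK inhibition. Per library, its signal was 6973, 7344 and 6903 in the acute, 3679.6, 3541 and 5107 in the chronic and 7889, 8042 and 8498 in the MEK-inhibited libraries. The 3 groups did not overlap, with MEK-inhibited libraries highest and chronic lowest. Irf1 fell by 0.80 ± 0.11 on the log2 scale with chronic stimulation (adjusted p = 2.24e-05) and rose by 1.01 ± 0.11 with MEK inhibition (adjusted p = 3.67e-06). Its difference between MEK-inhibited and acute libraries was not called by limma, at 0.20 (adjusted p = 0.216). That difference changed sign under 2 of 20 alternatives, with -0.18 at the lowest. Irf7 (chr7:141262706-141266481), the factor that amplifies type I interferon production, was weak, with 201, 289 and 148 in the acute, 110.5, 71.4 and 23.6 in the chronic and 195, 158 and 146 in the MEK-inhibited libraries. Chronic libraries were lowest without overlap, and their values spread widely. Irf7 changed by -1.73 ± 0.44 (SE, adjusted p = 0.00476) and by 1.43 ± 0.44 (SE, adjusted p = 0.0303). The second of these calls was lost without chronic library 2 or 3 and without any 1 of the MEK-inhibited libraries, falling to 0.85 without chronic library 3. It was also lost without the filter on low signal. The counted spans of Irf1, Irf7 and Irf9 each overlap 1 other gene (Gm17334, Phrf1 and Rnf31), and strand use in the counting is not given in the sources used here.

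Of the 5 sensors, 4 were called lower with chronic stimulation, and Zbp1 alone was called higher with MEK inhibition. Zbp1 (chr2:173206612-173218923) had a signal of 1315, 1318 and 1191 in the acute, 178, 209 and 281 in the chronic and 779, 755 and 528 in the MEK-inhibited libraries. The groups were fully separate in the order acute, MEK-inhibited, chronic. Zbp1 changed by -2.51 ± 0.20 (SE, adjusted p = 1.68e-08) with chronic stimulation and by 1.61 ± 0.20 (SE, adjusted p = 1.12e-05) with MEK inhibition. Ddx60 (chr8:61928087-62038244) had values of 402, 419 and 431 in the acute, 71.0, 64.1 and 109 in the chronic and 88.1, 92.5 and 139 in the MEK-inhibited libraries. Both chronic groups lay far below the acute one and overlapped each other. Its change was -2.32 ± 0.31 (SE, adjusted p = 1.20e-05) from acute to chronic, and from chronic to MEK-inhibited it was 0.37 ± 0.31 (SE, adjusted p = 0.491), which is not called.

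Ifih1 (chr2:62595798-62646255) was the 1 tested member whose difference with MEK inhibition was below 0. Its signal was 414, 277 and 361 in the acute, 176, 237 and 241 in the chronic and 173, 112 and 104 in the MEK-inhibited libraries. The 3 groups did not overlap and descended from acute through chronic to MEK-inhibited. Neither step of Ifih1 passed the test, with -0.67 ± 0.28 (SE, adjusted p = 0.078) and -0.75 ± 0.28 (SE, adjusted p = 0.0819), whereas the difference between MEK-inhibited and acute libraries did, at -1.42 ± 0.28 (SE, adjusted p = 0.00102). Without MEK-inhibited library 1, whose value was the highest of that group, the second step was called, at -1.02. Ddx58 and Dhx58, which encode RIG-I and its relative LGP2, fell with chronic stimulation (-0.88 and -0.96) and were at 0.12 and 0.08 with MEK inhibition, neither of them called. The fall of Dhx58 lost its call without acute library 2, without chronic library 1 and without the filter.

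Of the 4 IFIT genes, which encode RNA-binding blockers of translation and lie side by side on chromosome 19, Ifit1 and Ifit2 passed the filter. Ifit2 (chr19:34550694-34576419) had a signal of 855, 959 and 982 in the acute, 955, 818 and 744 in the chronic and 2321, 2134 and 2092 in the MEK-inhibited libraries. Acute and chronic libraries overlapped, and the MEK-inhibited libraries were all above them. The MEK-inhibited libraries exceeded the chronic ones by 1.38 ± 0.13 (SE, adjusted p = 4.35e-07) and the acute ones by 1.22 ± 0.13 (SE, adjusted p = 1.35e-06), whereas chronic minus acute was -0.16 ± 0.13 (SE, adjusted p = 0.386). Ifit1 (chr19:34640871-34650009) was near the filter, with 46.7, 31.5 and 70.7 in the acute, 4.51, 6.05 and 47.2 in the chronic and 94.5, 59.4 and 94.8 in the MEK-inhibited libraries. MEK-inhibited libraries were above all chronic ones, and chronic library 3 lay within the acute range while the other 2 chronic libraries were close to 0. The rise of Ifit1 was 2.29 ± 0.66 (SE, adjusted p = 0.0202) and was not called without chronic library 1 or 2 or without MEK-inhibited library 1 or 3. No chronic value reached the filter minimum of 50, so Ifit1 passed through acute and MEK-inhibited libraries and its rise was favoured by the filter. In the fit without the filter that rise was still called. The difference of Ifit1 between chronic and acute, -1.57 ± 0.66 (SE, adjusted p = 0.0746), was called without chronic library 3, at -2.36. Ifit3 and Ifit3b did not pass: Ifit3 had 8.32, 27.5 and 14.3 in the acute, 6.76, 13.3 and 0 in the chronic and 32.8, 50.1 and 30.2 in the MEK-inhibited libraries, with the MEK-inhibited values all above the others, and Ifit3b stayed at or below 16.02. These neighbouring paralogues resemble each other, so reads that fit more than 1 of them could be split in the authors' counting.

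The OAS family includes enzymes that make oligoadenylates, which activate the ribonuclease RNase L, but not every member makes them. Only Oas1b and Oas3 of the 6 on the list passed the filter, and both fell with chronic stimulation, by 0.57 and 0.65 on the log2 scale. Neither was called with MEK inhibition, with 0.47 and 0.06. The falls of both lost their call without acute library 2 and without the filter on low signal, that of Oas1b also without acute library 3 or chronic library 2, and that of Oas3 without chronic library 1. Oas1a was too weak to test, with 12.8, 26.9 and 46.2 in the acute, 28.2, 20.6 and 0 in the chronic and 9.61, 46.7 and 8.33 in the MEK-inhibited libraries, and its groups overlapped. Oas2, Oasl1 and Oasl2 did not pass the filter either. Like the IFIT genes, OAS genes include near-identical copies whose reads could be shared.

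Other antiviral effectors held both the steepest fall and the single rise under chronic stimulation. Isg20 (chr7:78913424-78920396) had a signal of 808, 966 and 828 in the acute, 82.3, 68.9 and 46.1 in the chronic and 292, 418 and 416 in the MEK-inhibited libraries. The acute libraries were all above the MEK-inhibited ones, and these were all above the chronic ones. Isg20 changed by -3.65 ± 0.26 (SE, adjusted p = 3.06e-09) with chronic stimulation, by 2.44 ± 0.26 (SE, adjusted p = 1.45e-06) with MEK inhibition, and by -1.21 ± 0.26 (SE, adjusted p = 0.00162) between MEK-inhibited and acute. Samd9l (chr6:3372257-3399572) had values of 1892, 1259 and 1820.3 in the acute, 161, 462 and 214 in the chronic and 897, 1164 and 1018 in the MEK-inhibited libraries, with 3 separate groups in the same order. Samd9l changed by -2.67 ± 0.31 (SE, adjusted p = 3.27e-05) and by 2.0 ± 0.31 (SE, adjusted p = 7.12e-04), and the difference between MEK-inhibited and acute libraries was not called, at -0.67 ± 0.31 (SE, adjusted p = 0.148).

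The 2 Mx genes lie near each other on chromosome 16. Mx1 (chr16:97447035-97462907) had a signal of 703, 700.1 and 967 in the acute, 1273, 925 and 1578 in the chronic and 1747, 1754 and 1696 in the MEK-inhibited libraries. The acute and chronic groups overlapped at 1 library each, and the MEK-inhibited libraries were above both. Mx1 was higher under chronic stimulation by 0.65 ± 0.17 (SE, adjusted p = 0.00711), but by only 0.16 and not called when libraries were scaled by their totals. Against acute, the MEK-inhibited difference was 1.14 ± 0.17 (SE, adjusted p = 7.61e-05). Mx2 (chr16:97535308-97560900), annotated as a polymorphic pseudogene, had 76.8, 61.0 and 59.8 in the acute, 15.8, 12.1 and 24.7 in the chronic and 32.8, 33.1 and 24.0 in the MEK-inhibited libraries. Acute libraries were above all others. The log2 difference between chronic and acute was -1.68, given without a test because Mx2 passed the filter only through the acute libraries. The difference between MEK-inhibited and chronic libraries was 0.66 ± 0.56 (SE, adjusted p = 0.497).

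Cmpk2 (chr12:26469204-26479837), a nucleotide kinase next to Rsad2, had a signal of 158, 115 and 178 in the acute, 58.6, 31.4 and 68.6 in the chronic and 113, 207 and 160.4 in the MEK-inhibited libraries. The chronic libraries were lowest without overlap. Its changes were -1.47 ± 0.39 (SE, adjusted p = 0.00619) and 1.53 ± 0.39 (SE, adjusted p = 0.0086). Rsad2, which encodes viperin, was too weak to test, with 20.5, 13.1 and 16.3 in the acute, 5.64, 0 and 1.12 in the chronic and 6.41, 28.9 and 5.21 in the MEK-inhibited libraries. Adar (chr3:89715022-89753446), the enzyme that edits adenosine to inosine in double-stranded RNA, was among the strongest, with 6091, 6919 and 5387 in the acute, 3265, 2611 and 2827 in the chronic and 5179, 5081 and 5050.4 in the MEK-inhibited libraries. All chronic values of Adar lay below all others. Adar changed by -1.08 ± 0.11 (SE, adjusted p = 2.56e-07) and 0.82 ± 0.11 (SE, adjusted p = 1.66e-05). Eif2ak2, which encodes the translation-blocking kinase PKR, was at -0.24 from acute to chronic, which is not called, and rose by 0.36 with MEK inhibition, a rise called under 11 of 20 alternatives and lost without any 1 acute library, chronic library 1 or 3 or MEK-inhibited library 1 or 2. Bst2 (chr8:71534255-71537456), the tether that holds budding virus on the cell, had 263, 311 and 289 in the acute, 335, 422 and 319 in the chronic and 497, 347 and 449.9 in the MEK-inhibited libraries. Its chronic values were just above the acute ones and overlapped the MEK-inhibited ones, and Bst2 was not called in any comparison (0.31, 0.26 and 0.56). Under scaling by library totals its difference from acute to chronic was -0.18. Ifitm3, a blocker of viral entry, did not pass the filter.

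**Figure D3:**
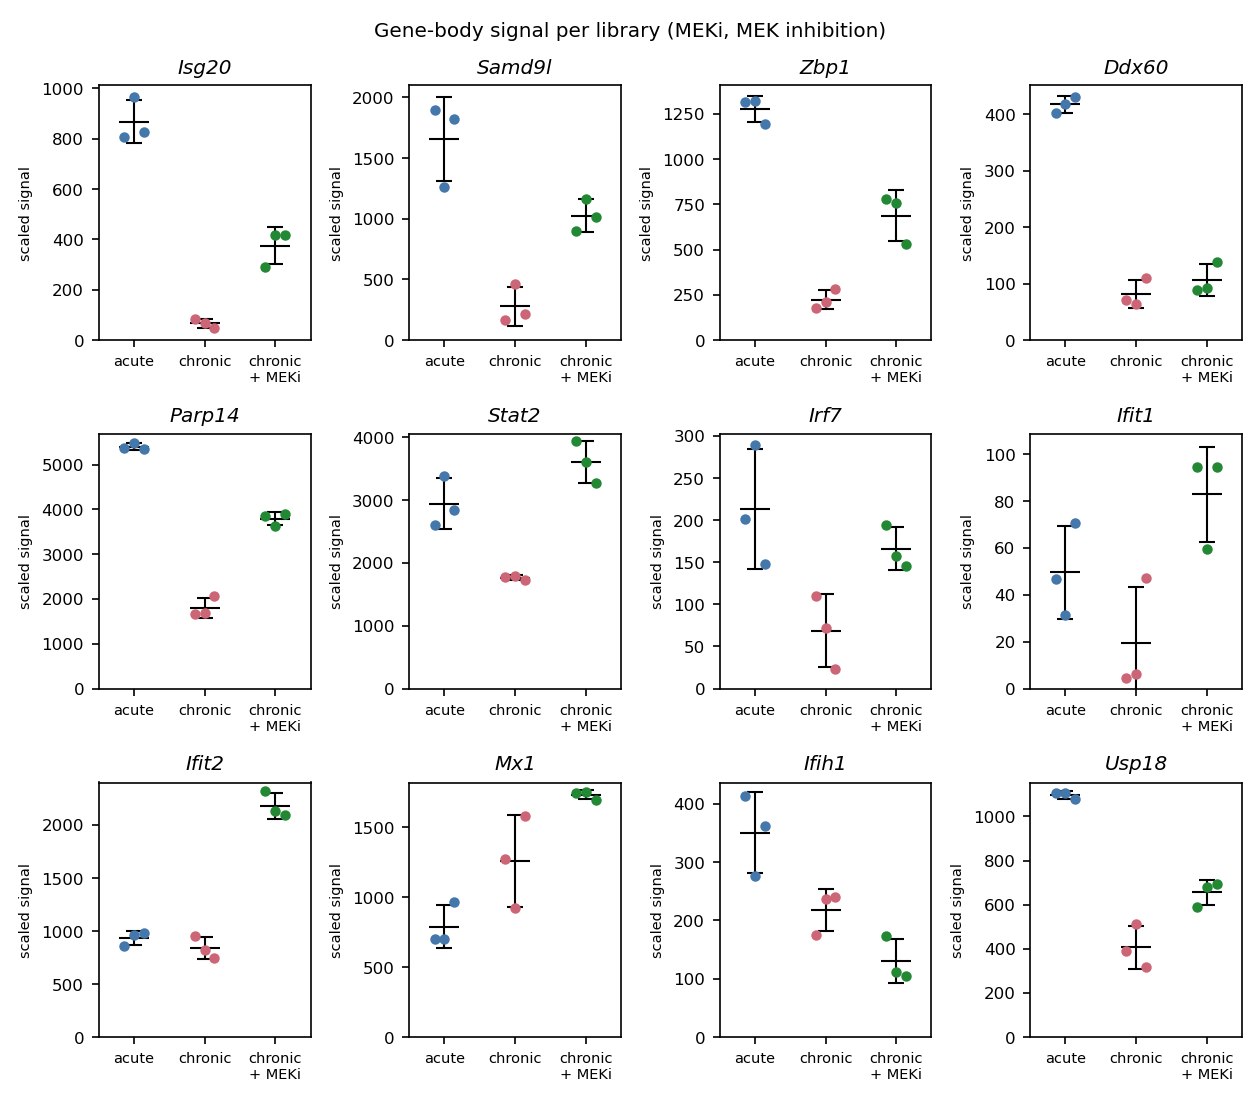
Scaled gene-body signal of selected members in each library (points), with the mean and SD of each group of 3 (lines); each panel has its own linear axis from 0. Isg20 has 3 separate groups, from low chronic to high acute values, whereas Mx1 and Ifit2 have their highest values in the MEK-inhibited libraries.

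The ISG15 pathway attaches the ubiquitin-like protein ISG15 to other proteins. Isg15 itself (chr4:156199424-156200818) had little signal, with 41.0, 6.56 and 17.7 in the acute, 1.13, 9.68 and 7.87 in the chronic and 14.4, 5.09 and 21.9 in the MEK-inhibited libraries, and its groups overlapped. Usp18 (chr6:121245906-121270917), which removes ISG15 and dampens signalling from IFNAR2, had 1108, 1105 and 1078 in the acute, 391, 510.4 and 317 in the chronic and 589, 681 and 696 in the MEK-inhibited libraries. The 3 groups of Usp18 were separate, acute highest and chronic lowest. Usp18 changed by -1.45 ± 0.18 (SE, adjusted p = 4.28e-06) and 0.71 ± 0.18 (SE, adjusted p = 0.00894), and remained below acute with MEK inhibition, by -0.74 ± 0.18 (SE, adjusted p = 0.00443). The rise of Usp18 with MEK inhibition lost its call without the filter. Herc6, the mouse ISG15 ligase, was not called in any comparison (0.18, 0.18 and 0.37), and its first value was -0.30 when scaled by library totals.

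Parp9, Dtx3l and Parp14 lie together on chromosome 16. PARP9 and DTX3L form a complex of an ADP-ribosylation partner and a ubiquitin ligase, and PARP14 is a mono-ADP-ribosyltransferase. Parp14 (chr16:35832874-35871544) had a signal of 5368, 5491 and 5349 in the acute, 1659, 1693 and 2059 in the chronic and 3861, 3625 and 3903 in the MEK-inhibited libraries, with 3 separate groups. Its replicates were close to each other, and it changed by -1.59 ± 0.10 (SE, adjusted p = 6.36e-10), 1.08 ± 0.10 (SE, adjusted p = 2.93e-07) and, between MEK-inhibited and acute, -0.51 ± 0.10 (SE, adjusted p = 8.08e-04). Dtx3l (chr16:35926511-35939151) had 4238, 4080.0 and 4050.2 in the acute, 1878, 1935 and 1819.9 in the chronic and 4044, 3597 and 3902 in the MEK-inhibited libraries. The chronic libraries were below all others by a wide margin, and the MEK-inhibited libraries were just under the acute ones. Dtx3l changed by -1.13 ± 0.09 (SE, adjusted p = 1.94e-08) and 1.03 ± 0.09 (SE, adjusted p = 1.74e-07), with -0.10 ± 0.09 (SE, adjusted p = 0.469) between MEK-inhibited and acute. Parp9 fell by 0.96 with chronic stimulation and rose by 0.65 with MEK inhibition. Parp9 and Dtx3l overlap on opposite strands at their starts, so part of their signal may be shared.

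Of the 3 TRIM ubiquitin ligases and 2 nuclear body proteins, all but Daxx were called lower with chronic stimulation. Trim21, an intracellular antibody receptor, Trim25, an activator of RIG-I, and Trim30a fell by 0.64, 0.36 and 0.67 with chronic stimulation. Trim21 and Trim30a rose by 0.55 and 0.59 with MEK inhibition, and Trim25 was at 0.09, not called. The fall of Trim21 lost its call without chronic library 1 and that of Trim25 without acute library 2, and both without the filter. The rise of Trim21 was lost under 8 of 20 alternatives, among them each left-out acute library, chronic library 1 and MEK-inhibited library 1 or 3, and was 0.36 at the lowest. That of Trim30a was lost without the filter. Sp100 (chr1:85649988-85709998), a scaffold of PML nuclear bodies, had a signal of 6903, 7189 and 6543 in the acute, 2738, 2643 and 2410.0 in the chronic and 3966, 4068 and 3653 in the MEK-inhibited libraries. The 3 groups were separate, with MEK-inhibited libraries nearer to chronic than to acute. Sp100 changed by -1.40 ± 0.09 (SE, adjusted p = 1.12e-09), 0.58 ± 0.09 (SE, adjusted p = 1.40e-04) and, between MEK-inhibited and acute, -0.82 ± 0.09 (SE, adjusted p = 2.13e-06). Daxx, a histone chaperone found in those bodies, was not called in any comparison (-0.38, 0.41 and 0.03).

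Of the 7 remaining members, 6 passed the filter, all 6 fell with chronic stimulation and 5 rose with MEK inhibition. Xaf1 (chr11:72301629-72313733), an antagonist of the apoptosis inhibitor XIAP, had 1575, 1611 and 1614 in the acute, 455, 348 and 541 in the chronic and 1016, 891 and 805 in the MEK-inhibited libraries, and the 3 groups did not overlap. Xaf1 changed by -1.85 ± 0.16 (SE, adjusted p = 7.10e-08) and 1.02 ± 0.16 (SE, adjusted p = 1.90e-04). Helz2 (chr2:181227615-181242027), a helicase and transcriptional coactivator, had 1516, 1664 and 1176 in the acute, 599.7, 698 and 591 in the chronic and 1668, 1500.4 and 1309 in the MEK-inhibited libraries. Chronic libraries were lowest and the other 2 groups overlapped. Helz2 changed by -1.19 ± 0.15 (SE, adjusted p = 6.49e-06) and 1.24 ± 0.15 (SE, adjusted p = 9.01e-06).

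Ifi27 (chr12:103434211-103440239), a small membrane protein, had 766, 784 and 650.2 in the acute, 238, 415 and 216 in the chronic and 546, 557 and 393 in the MEK-inhibited libraries. Its acute values were above all others, and chronic library 2 lay within the MEK-inhibited range. Ifi27 changed by -1.38 ± 0.24 (SE, adjusted p = 1.60e-04) and 0.82 ± 0.24 (SE, adjusted p = 0.0214), and the second call was lost without chronic library 1 or 3 or MEK-inhibited library 1 or 2. That call was also lost without the filter. Rtp4 (chr16:23520291-23614222), a chaperone of membrane receptors with antiviral activity, had 299, 135 and 325 in the acute, 142, 48.4 and 31.5 in the chronic and 129.8, 92.5 and 81.2 in the MEK-inhibited libraries. Its acute and chronic values overlapped, because acute library 2 was below chronic library 1. Rtp4 changed by -1.87 ± 0.48 (SE, adjusted p = 0.00504) and was at 0.66 ± 0.48 (SE, adjusted p = 0.406) with MEK inhibition. The long counted span of Rtp4 takes in Masp1 on the other strand. Ifi35 and Lgals3bp fell by 0.59 and 0.96 and rose by 0.55 and 0.70, and Ifi44 did not pass the filter. The rise of Ifi35 lost its call without MEK-inhibited library 1 and without the filter.

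The members varied widely in level. Per kilobase of counted span in acute libraries, Irf1 was followed by Irf9 at 425 ± 81.5 (SD, n = 3), Dtx3l at 326 ± 8.0 and Lgals3bp at 234 ± 24.4. The lowest tested were Ddx60 at 3.79 ± 0.134, Rtp4 at 2.69 ± 1.10 and Mx2 at 2.65 ± 0.384, the last 2 within each other's spread. Under chronic stimulation Isg20 was at 9.60 ± 2.67 and Samd9l at 10.2 ± 5.88 per kilobase, against 127 ± 12.5 and 60.7 ± 12.7 in acute libraries. The 10 members that did not pass the filter (Ifit3, Ifit3b, Oas1a, Oas2, Oasl1, Oasl2, Rsad2, Ifitm3, Isg15 and Ifi44) had no signal above 53.0 in any library. In the limma fit without the filter all 10 were tested and none was called, with 3 (Ifi44, Oas2 and Rsad2) at an unadjusted p under 0.05 between chronic and acute, 1 (Ifit3) between MEK-inhibited and chronic and 1 (Ifi44) between MEK-inhibited and acute.

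The second deposited table, of signal near the transcription start (the pause region), held 19 of the 47 members above the same filter. Passage of the filter through 1 group alone was looked at in the gene body only, so pause-region falls favoured by the filter remain possible. With chronic stimulation 8 of the 19 were lower and none higher, where 5.35% of the 7678 genes tested were called lower and 5.37% higher. They were Irf1, Zbp1, Parp9, Parp14, Dtx3l, Sp100, Ifi27 and Lgals3bp, with log2 changes from -2.64 for Sp100 to -0.62 for Irf1. Sp100 pause-region signal was 136, 110.4 and 210.5 in the acute, 40.8, 5.84 and 24.1 in the chronic and 78.0, 37.0 and 52.6 in the MEK-inhibited libraries, with acute libraries above all others. No chronic pause-region value of Sp100 reached the filter minimum, so this fall was favoured by the filter. With MEK inhibition 1 member, Irf1, was called higher, at 0.96 ± 0.19 (SE, adjusted p = 0.00337), where 1.56% of all genes were. Irf1 pause-region signal was 656, 950.2 and 681 in the acute, 460.2, 465 and 538 in the chronic and 806, 947 and 1118 in the MEK-inhibited libraries, and the chronic libraries were lowest. Between MEK-inhibited and acute libraries limma called none of the 19 (4 at an unadjusted p under 0.05), where 2.51% of all genes were lower and 3.44% higher. Whether pause region and gene body of a gene moved unequally was tested on their difference within each library. None of the 19 members, and 0.00% of 7413 genes, was called by limma in any of the 3 comparisons, with 1 member each at an unadjusted p under 0.05.

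Of 44 further genes of interferon production, reception and signalling on a list set beside the members, 39 were matched to a row and 32 passed the filter. Between chronic and acute 12 of the 32 fell and 3 rose, where 15.9% of all genes fell and 18.0% rose. Between MEK-inhibited and chronic 13 rose and 3 fell, beside 9.93% and 7.65% of all genes. Between MEK-inhibited and acute 6 were higher and 5 lower, beside 14.4% and 11.5% of all genes. All 5 receptor chains that passed were called lower with chronic stimulation, and all 5 were called higher with MEK inhibition. Ifngr2 (chr16:91547072-91565623), the signalling chain of the interferon gamma receptor, had a signal of 2534, 3101 and 2464 in the acute, 397, 386 and 395 in the chronic and 2277, 2302 and 1697 in the MEK-inhibited libraries. Its chronic values were close together and far below both other groups. Ifngr2 changed by -2.76 ± 0.14 (SE, adjusted p = 5.22e-11) and 2.39 ± 0.14 (SE, adjusted p = 1.13e-09). Ifnar2 (chr16:91372783-91405589) had 4706, 5166 and 5032 in the acute, 1343, 1638 and 998 in the chronic and 4676, 4397 and 3746 in the MEK-inhibited libraries, also with chronic libraries lowest and no overlap with them. Ifnar2 changed by -1.93 ± 0.14 (SE, adjusted p = 1.59e-08) and 1.71 ± 0.14 (SE, adjusted p = 1.88e-07). Ifnar1 changed by -1.58 and 1.18, Il10rb, a chain shared by interferon lambda and interleukin-10 receptors, by -1.81 and 1.57, and Ifngr1, the ligand-binding chain of the interferon gamma receptor, by -0.85 and 0.66.

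Interferon gamma itself, the ligand, was transcribed most under chronic stimulation. Of 9 interferon ligand genes on the list, Ifnb1, Ifna1, Ifna4 and Ifne were matched to no row and not analysed here, and of the 5 matched Ifng alone passed the filter. Ifng (chr10:118441046-118445892) had a signal of 133, 111 and 169 in the acute, 1473, 1863 and 2144 in the chronic and 676, 763 and 886 in the MEK-inhibited libraries. Its 3 groups were separate, chronic highest and acute lowest. Ifng rose by 3.69 ± 0.20 (SE, adjusted p = 9.48e-11) with chronic stimulation and changed by -1.22 ± 0.20 (SE, adjusted p = 1.95e-04) with MEK inhibition, which left it above acute by 2.46 ± 0.20 (SE, adjusted p = 3.46e-08).

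**Figure D4:**
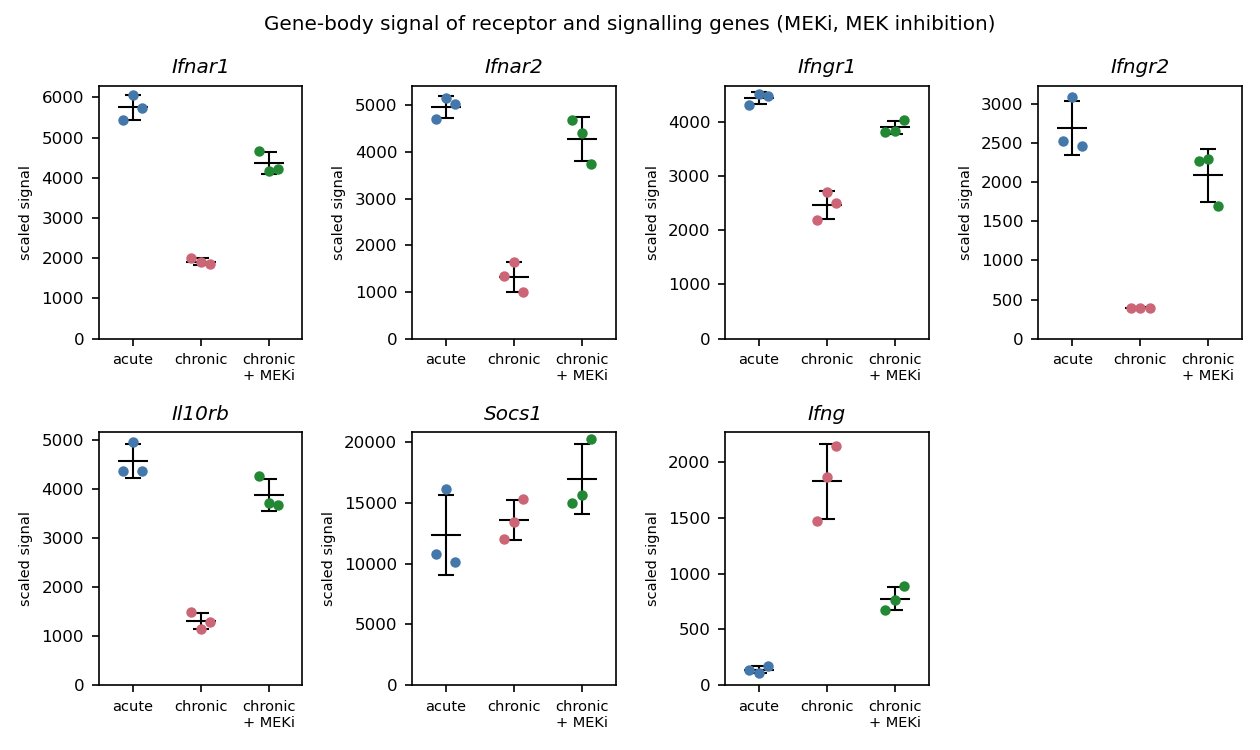
Scaled gene-body signal of interferon receptor and signalling genes in each library (points), with the mean and SD of each group of 3 (lines), on linear axes from 0. All 5 receptor chains are lowest in the chronic libraries, Socs1 overlaps between groups, and Ifng is highest in the chronic libraries.

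Among 8 JAK-STAT and IRF genes, Irf8 and Jak1 fell with chronic stimulation (-0.75 and -0.56). With MEK inhibition Irf8 and Stat3 rose (1.12 and 0.41) and Irf2, a repressor of interferon responses, fell (-0.41). Of 9 negative regulators, the phosphatase genes Ptpn1 and Ptpn11 and the STAT inhibitor Pias1 fell with chronic stimulation (-1.05, -0.34 and -0.65), and Ptpn1, Socs3, Pias1 and Irf2bp2 rose with MEK inhibition (1.02, 0.67, 0.44 and 0.38). Socs1, the main feedback inhibitor of JAK kinases, was not called in any comparison, and its libraries overlapped, with 10749, 16133 and 10136 in the acute, 12013, 13438 and 15338 in the chronic and 14994, 15607 and 20234 in the MEK-inhibited libraries. Samhd1, an enzyme that breaks down the building blocks of DNA, fell by 1.84 with chronic stimulation and rose by 1.54 with MEK inhibition. Trex1, a DNA exonuclease, and Ticam1, the adaptor of Toll-like receptor signalling also called TRIF, rose with chronic stimulation (0.67 and 0.53), and Ticam1 fell by 0.66 with MEK inhibition.

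Promoter sequences are given for members at the ends of these patterns, as RefSeq windows of build GRCm38.p6 with 250 bases before and 50 after the transcript start. A window within 1000 bases of the counted start was found for 36 of the 47 members, and none was used for Dhx58, Zbp1, Oas1b, Oas2, Mx1, Mx2, Usp18, Parp9, Parp14, Ifi27 and Rtp4. On both strands, windows were searched for a pair of GAAA with any 2 bases between them, a form of the interferon-stimulated response element called the GAAA pair below, and for TTCNNNGAA, a form of the gamma-activated site. The 2 motifs can share bases. The GAAA pair was in the windows of 16 of the 36 members, or 44.4%, and in 3.44% of 32851 windows of all genes. TTCNNNGAA was in 8 of the 36, or 22.2%, and in 8.3% of all windows. Among members with a window, the GAAA pair was in 6 of 20 called lower under chronic stimulation, in 4 of 7 tested and not called lower, and in 6 of 9 that were too weak to test. TTCNNNGAA was in 3 of the 20, 3 of the 7 and 2 of the 9. Among members called higher with MEK inhibition, the GAAA pair and TTCNNNGAA were each in 5 of 19, and among those tested and not called higher, in 5 and 1 of 8. No difference between these shares was tested, and 9 of the 29 members called lower have no window. The window of Isg20 (chr7:78913174-78913473 on the plus strand), the member with the largest fall, holds 1 TTCNNNGAA, in capitals, and that of Samd9l (chr6:3399522-3399821 on the minus strand), the next, holds neither motif. A match, or its absence, describes only these letters in these windows.
Isg20: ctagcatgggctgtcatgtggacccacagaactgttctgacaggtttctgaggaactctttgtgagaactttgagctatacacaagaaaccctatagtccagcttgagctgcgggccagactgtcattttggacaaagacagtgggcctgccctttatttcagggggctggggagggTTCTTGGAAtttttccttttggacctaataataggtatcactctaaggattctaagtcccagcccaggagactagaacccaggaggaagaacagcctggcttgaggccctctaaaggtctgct
Samd9l: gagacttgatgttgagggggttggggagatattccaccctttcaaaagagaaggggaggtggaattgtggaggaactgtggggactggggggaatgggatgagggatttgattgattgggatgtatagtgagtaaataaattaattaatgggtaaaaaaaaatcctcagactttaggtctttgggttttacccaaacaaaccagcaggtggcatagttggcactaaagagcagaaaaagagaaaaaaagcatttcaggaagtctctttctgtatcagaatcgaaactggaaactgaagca

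For comparison, 3 windows that hold several matches of the GAAA pair, in capitals, were chosen after the matches had been seen. Ddx60 (chr8:61927837-61928136 on the plus strand) fell with chronic stimulation and was not called with MEK inhibition. Ifit1 (chr19:34640639-34640938 on the plus strand) rose with MEK inhibition and has its matches on the opposite strand of the one printed. Isg15 (chr4:156200769-156201068 on the minus strand), whose 3 matches overlap, was too weak to test.
Ddx60: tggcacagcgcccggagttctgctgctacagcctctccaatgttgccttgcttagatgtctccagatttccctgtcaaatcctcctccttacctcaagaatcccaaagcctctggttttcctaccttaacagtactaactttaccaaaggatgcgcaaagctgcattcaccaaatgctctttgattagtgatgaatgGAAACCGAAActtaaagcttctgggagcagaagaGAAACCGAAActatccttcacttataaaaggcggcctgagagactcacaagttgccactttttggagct
Ifit1: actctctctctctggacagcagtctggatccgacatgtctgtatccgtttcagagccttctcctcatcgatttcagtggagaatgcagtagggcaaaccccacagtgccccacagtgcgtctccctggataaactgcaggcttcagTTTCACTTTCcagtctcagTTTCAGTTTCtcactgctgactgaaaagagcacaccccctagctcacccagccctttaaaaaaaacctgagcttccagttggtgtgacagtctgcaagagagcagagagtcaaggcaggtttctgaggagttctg
Isg15: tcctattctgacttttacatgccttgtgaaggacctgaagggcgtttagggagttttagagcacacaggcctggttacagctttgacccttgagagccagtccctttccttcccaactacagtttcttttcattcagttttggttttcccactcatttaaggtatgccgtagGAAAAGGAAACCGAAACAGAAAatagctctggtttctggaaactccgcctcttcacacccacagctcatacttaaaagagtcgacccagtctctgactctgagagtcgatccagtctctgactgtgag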

How the data were processed

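Nascent RNA was measured in 9 libraries of mouse CD8+ T cells. Per the submitters' processing notes, mm10, FastQC 0.12.0, Trim Galore 0.6.10, STAR 2.7.0a, SAMtools 1.19.2, deepTools 0.1.9 and R 4.1.2 were used; their roles, region coordinates and strand use are not given in the sources used here. What the authors deposited is a signal value per transcript, for gene bodies and for pause regions. It was not treated as read counts: low values were whole multiples of a step of 0.764 to 1.06 that differed between libraries, in each of which 2 and 4 steps held more rows than 1 and 3. What a step stands for is not given in the sources used here.

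Rows were joined to GENCODE M21, and each gene was represented by the transcript row of highest mean gene-body signal. Genes reaching 50 in 3 or more libraries were kept. Libraries were scaled with unweighted trimmed means (30% of log ratios and 5% of levels trimmed at each end). Log2(signal + 5) was fitted with limma 3.58.1 (trend and robust, R 4.3.3; Python 3.11.15 and pandas 2.3.3), with 1 model for 9 libraries and Benjamini-Hochberg adjustment over all genes. The fit was tested on simulated data with independent noise and a small set of genes changed equally up and down in 1 group. That setting does not cover changes in many genes or a ribosomal RNA share that differs between groups. Members and lists were chosen with earlier results of these data known, and some listed genes are not reported here. Values per library are given for members called with a log2 change of at least 1 and for a set of members named by symbol. Outside that rule, they are also given for Ifit3 and Rsad2, which did not pass the filter. Alternatives covered scaling, pseudocount, filter, transcript row, moderation, a replicate block, overlapping genes and each library left out.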

Additional observations from a re-analysis of the deposited data

How the results depend on the processing

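No called change of an interferon-stimulated gene reversed its sign under any of the 20 gene-body alternatives, and 23 of 30 calls between chronic and acute, 15 of 24 between MEK-inhibited and chronic and 11 of 15 between MEK-inhibited and acute were kept under all of them that gave a value. Under library totals and under the deposited scale no member was called higher between chronic and acute, with medians of -1.45 and -1.43. Between MEK-inhibited and acute 24 and 21 members were lower, with medians of -0.65 and -0.61. These scalings moved the median of all genes by -0.49 and -0.47 in the first comparison and by -0.38 and -0.34 in the second. Over all genes, 6846 and 6713 were then lower and 1096 and 1134 higher between chronic and acute. Between MEK-inhibited and acute 4965 and 4542 were lower and 955 and 1023 higher. When rows resembling ribosomal RNA were left out of the totals, the scaling gave medians of -1.12 and -0.43 and moved the median of all genes by -0.16 and -0.17. In pause-region signal, with 19 members tested, 0 were higher and 8 lower between chronic and acute (median -0.54), 1 was higher between MEK-inhibited and chronic (median 0.48), and 0 were higher and 0 lower between MEK-inhibited and acute (median -0.064). The 22 members that overlap no other gene gave 16 lower, 12 higher and 7 lower in the 3 comparisons. With 1 library left out, 24 to 30 members were lower and 1 higher between chronic and acute, 17 to 22 higher and 0 to 1 lower (Ifih1, without MEK-inhibited library 1) between MEK-inhibited and chronic, and 9 to 15 lower and 2 to 4 higher between MEK-inhibited and acute. Of all genes, 2057 to 2578 were then lower and 2354 to 2941 higher between chronic and acute. Between MEK-inhibited and chronic 933 to 1526 were higher and 896 to 1661 lower. Between MEK-inhibited and acute 1369 to 2087 were lower and 1578 to 2466 higher. Without any filter 24 members were lower between chronic and acute, 16 higher between MEK-inhibited and chronic and 9 lower between MEK-inhibited and acute. All genes in that fit gave 1853 lower, 725 higher and 1337 lower in the same comparisons, against 2528, 1583 and 1827 with the filter. Another reference library for the scaling, added after the data had been seen, gave 21 higher between MEK-inhibited and chronic. It gave 1293 higher and 1532 lower over all genes in that comparison.

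Libraries share replicate numbers across groups, but same-numbered libraries did not all deviate together from their group means. Correlations of these deviations were 0.075 to 0.098 in same-numbered acute and chronic libraries and -0.077 to -0.012 in unlike-numbered ones. For acute and MEK-inhibited libraries they were -0.533 to -0.011 and -0.367 to 0.513. Same-numbered chronic and MEK-inhibited libraries gave -0.153 to 0.091, and unlike-numbered ones -0.106 to 0.158. Acute and chronic libraries of the same number thus deviated weakly together, which did not hold for the other pairs of groups. The main fit took no pairing. A replicate block left 28 members lower (all but Mx2) and 1 higher between chronic and acute, 25 higher between MEK-inhibited and chronic, and 14 lower and 2 higher between MEK-inhibited and acute. Over all genes it gave 2550 lower and 2947 higher between chronic and acute, and 1668 higher between MEK-inhibited and chronic. Between MEK-inhibited and acute it gave 1894 lower and 2369 higher.

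The number of libraries, 3 a group, limits the precision, and depth in reads is unknown. Weak genes such as Isg15 were left out by the filter, and none of the 10 so left out was called without it.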

Other observations

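Of the 5 receptor genes that passed the filter, 4 lie next to each other on chromosome 16, and their neighbours were looked at after these values had been seen. Ifnar2, Gm21970, Il10rb, Ifnar1, Ifngr2 and Tmem50b follow each other between chr16:91372783 and 91597800. Tmem50b, which is no interferon receptor, had a signal of 590.4, 853 and 602 in the acute, 276, 172 and 199 in the chronic and 612, 547 and 567 in the MEK-inhibited libraries, with chronic libraries lowest. It changed by -1.64 ± 0.22 (SE, adjusted p = 9.70e-06) from acute to chronic and by 1.42 ± 0.22 (SE, adjusted p = 1.08e-04) from chronic to MEK-inhibited, as log2 values of limma. Gm21970 overlaps Ifnar2 and Il10rb, so its signal cannot be told apart from theirs. Among the tested genes on either side, Paxbp1 changed by 0.62 and -1.0, and 4932438H23Rik, with 46.1, 72.8 and 73.4 in the acute, 269, 512 and 311 in the chronic and 26.4, 23.8 and 37.5 in the MEK-inhibited libraries, by 2.39 and -3.40, both of them upstream of the receptors and highest in the chronic libraries. Downstream, Gart was at 0.11, not called, and -0.35, and Son at -0.27 and 0.17, the latter not called. These are values of single genes, and no test was made of the region.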
